A study of Mus musculus with 40 samples.

Results

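The genes described here encode 9 hepatocyte lineage transcription factors, *Hnf4a*, *Foxa1*, *Foxa2*, *Foxa3*, *Cebpa*, *Cebpb*, *Onecut1*, *Onecut2* and *Prox1*, and the data are the binding sites of 3 repressive cofactors around them in mouse liver. A peak of the SMRT, NCoR or HDAC3 list was counted for a gene when its centre lay in the gene or within 50 kb of either end in the mm10 build. This gave 152 of the 60254 peaks of the lists, made up of 31 of 10654 for SMRT, 82 of 35138 for NCoR and 39 of 14462 for HDAC3. The 9 genes were compared with all 21938 protein-coding genes, counted the same way.

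Hepatocyte identity is held by a network of transcription factors that bind each other's regulatory regions. HNF4α is a nuclear receptor that keeps the hepatocyte program on, FOXA proteins are pioneer factors that open liver chromatin, C/EBPα and C/EBPβ are basic leucine zipper factors of metabolic and acute phase genes, ONECUT1 (also called HNF6) and ONECUT2 guide liver and biliary development, and PROX1 is a homeobox protein needed for the hepatoblast to migrate and mature. NCoR and SMRT are related corepressors that DNA-bound factors recruit, and HDAC3 is the histone deacetylase that they carry and activate. A site with all 3 proteins is thus a place where a deacetylase complex can sit, and the lists say where that was found but not how a gene was expressed.

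The study used chromatin immunoprecipitation followed by sequencing (ChIP-seq) to map BCL6, a transcriptional repressor, and partners in liver. The 40 samples used here, a part of that study with no BCL6 library, fall into 18 groups. Of these samples, 9 (3 for each cofactor) were the immunoprecipitated libraries of the lists used here, set against input chromatin by the authors. These came from ad libitum fed male C57BL/6 mice labelled wild type that carried Bcl6 fl/fl without Cre, so that *Bcl6* was floxed in every one of them but not deleted. The other 31 samples were the H3K27ac and PPARδ libraries, the cofactor libraries of *Bcl6* liver knockouts and the inputs. They were not analysed here, and no comparison of genotypes or feeding states was made. The tissue was whole liver, in which hepatocytes, cholangiocytes, endothelial cells and macrophages all add chromatin, and peak positions hold no expression by which the label could be checked against marker genes. Each list stood for its 3 libraries together and held positions only, with no height, score or value per animal, so all counts below have an exact (Clopper-Pearson) 95% interval for counting at most and no error between animals. Neighbouring peaks are not independent, and the sources used here give no depth for any list.

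All 9 genes had at least 1 NCoR peak, against 72.3% of all protein-coding genes, and all 9 had at least 1 SMRT peak, against 43.1%. HDAC3 was found at 8 of 9, against 52.1%, with *Foxa1* the exception. NCoR ranged from 2 peaks at *Foxa1* to 16 at *Cebpa* with a median of 9, while the median over all protein-coding genes was 2. The median was 3 for SMRT and 5 for HDAC3, against 0 and 1 over all genes. An NCoR peak with a SMRT and an HDAC3 centre each within 200 bp of its own centre is called a shared site here. There were 23 of these, and 7 of the 9 genes had at least 1, against 39.2% of all protein-coding genes. *Foxa1* and *Foxa3* had none. *Cebpa* and *Cebpb* had most with 5 each, followed by *Foxa2* with 4, *Onecut2* and *Prox1* with 3 each, *Onecut1* with 2 and *Hnf4a* with 1. At least 5 shared sites were found at 2.44% of protein-coding genes. No test between genes was made, since each gene has 1 count per list.

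**Figure D1:**
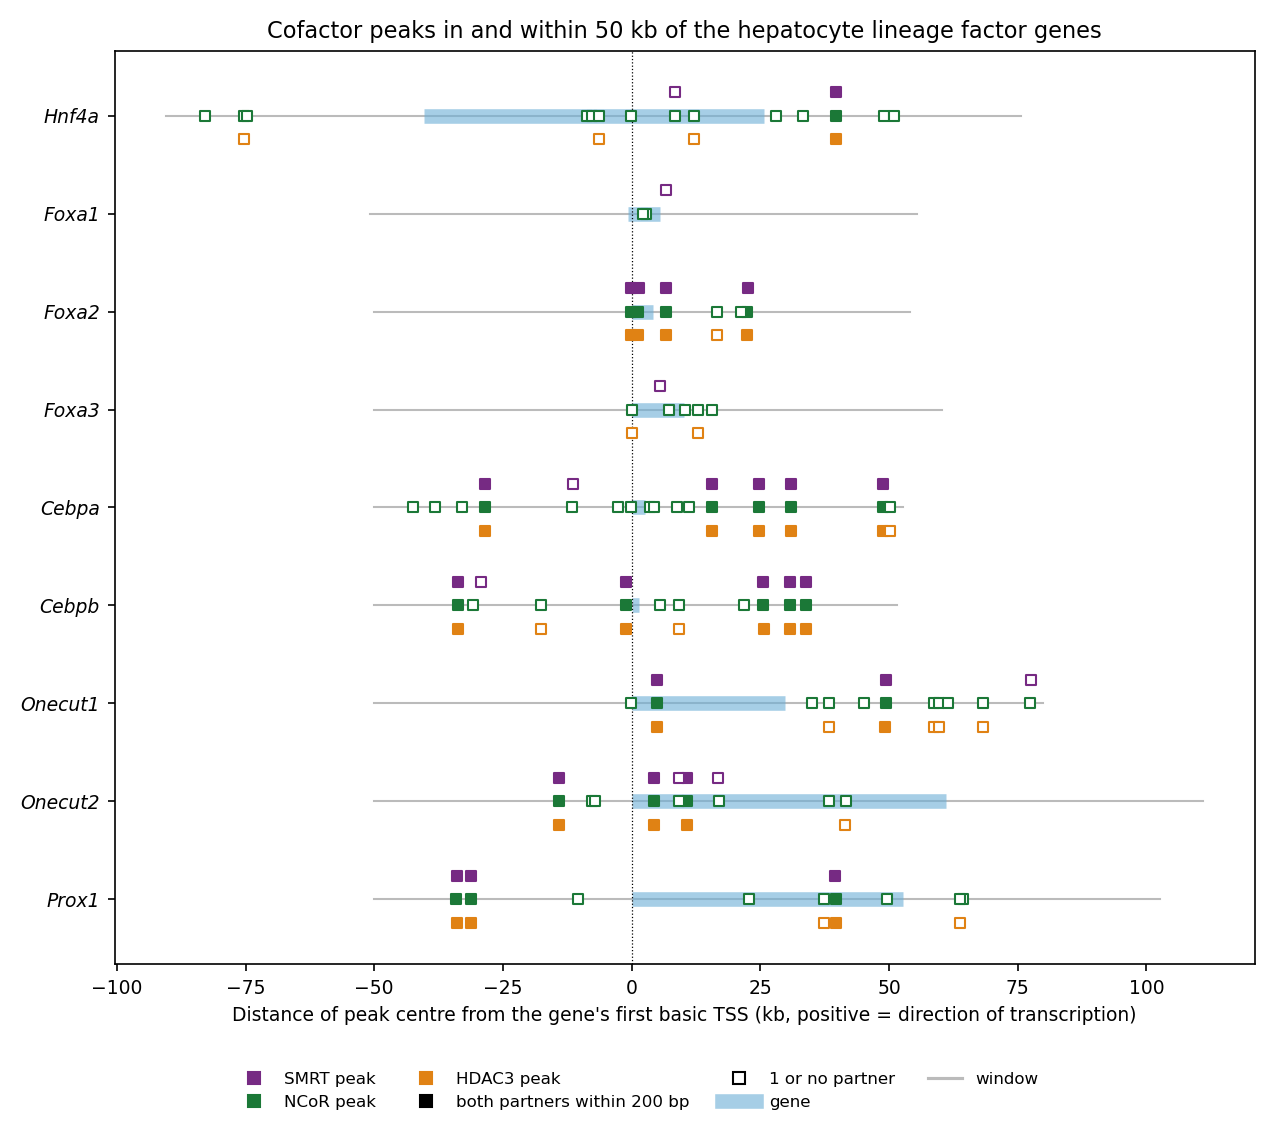
Positions of SMRT, NCoR and HDAC3 peaks (squares, 1 lane per cofactor) for each gene, against the distance in kb from the gene's first annotated start in the direction of transcription, where the text gives distances to the nearest start. Filled squares mark peaks with both partners within 200 bp, blue bars the gene and grey lines the window. *Cebpa* and *Cebpb* have 5 filled NCoR squares each, *Foxa2* has 4, and *Foxa1* and *Foxa3* have none.

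*Hnf4a* lies on chromosome 2 (163506808 to 163572910, plus strand) and had many NCoR peaks with few partners. Its window held 14 NCoR, 2 SMRT and 4 HDAC3 peaks, and at least 14 NCoR peaks were found at 1.97% of protein-coding genes. Of the 14 NCoR peaks, 9 had neither partner, 3 had HDAC3, 1 had SMRT and 1 was a shared site. The adult promoter had an NCoR peak without partners, centred 43 bp upstream of the start. The upstream start that opens the gene at 163506808, which is in the comprehensive but not the basic annotation, had its nearest NCoR peak 31734 bp away and its nearest HDAC3 peak 34070 bp away. Within the gene, upstream of the adult promoter, 3 NCoR peaks stood 8645, 7717 and 6330 bp before its start, and the last of these had HDAC3. Downstream of that start, an intronic peak at 8345 bp had SMRT and another at 12128 bp had HDAC3. The shared site was intergenic, 39766 bp downstream of the start, and its nearest protein-coding start was that of *Ttpal*, an α-tocopherol transfer protein-like gene, 15360 bp away. It is printed because it is the locus's only shared site and holds a match to the FOX consensus TGTTTAC, read on either strand. As in each sequence below, 200 bases around the NCoR peak centre are given 5′ to 3′ on the plus strand of the GRCm38 (mm10) RefSeq assembly, with the matched bases in capitals.
Hnf4a shared site, chr2:163586855-163587054: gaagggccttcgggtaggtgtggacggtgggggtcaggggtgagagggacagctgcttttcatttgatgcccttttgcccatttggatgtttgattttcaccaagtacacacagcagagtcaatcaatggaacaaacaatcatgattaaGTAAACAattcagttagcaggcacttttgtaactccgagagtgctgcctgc

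*Foxa2*, on the minus strand of chromosome 2 (148042877 to 148046969), had the largest part of its NCoR peaks in complete sites among the 9 genes. The 6 NCoR peaks of its window stood with 4 SMRT and 5 HDAC3 peaks, and 4 of the 6 were shared. It was also the only one of the 9 genes with all 3 cofactors at its promoter, defined as 1000 bp upstream to 100 bp downstream of a start. *Foxa2* has 2 basic starts, at 148046969 and 148045948, and each distance here is to the nearer one. The NCoR centre at the promoter was 133 bp upstream of the first, with SMRT 108 bp and HDAC3 101 bp from that start. The other shared sites were downstream of the second start. They lay at 267 bp, in an intron of the gene, at 5587 bp, past its 3′ end in intergenic sequence, and at 21453 bp in an intron of the non-coding gene *9030622O22Rik*. The remaining peaks of this last intron were 1 NCoR peak with HDAC3 at 15583 bp and 1 alone at 20246 bp from the second start. Both had a match to DR1, the direct repeat bound by HNF4α and by PPAR-RXR dimers. The promoter site and the shared sites at 5587 and 21453 bp each held a match to the HNF6 consensus, searched as TATCGAT and TATTGAT. They are printed to show this, the promoter as the shared site nearest to a start and the other 2 as chosen after their values were seen. The HNF6 match lay 77 bases past the window's centre at the promoter, 38 before it at 5587 bp and 74 before it at 21453 bp, as read on the plus strand.
Foxa2 promoter site, chr2:148047003-148047202: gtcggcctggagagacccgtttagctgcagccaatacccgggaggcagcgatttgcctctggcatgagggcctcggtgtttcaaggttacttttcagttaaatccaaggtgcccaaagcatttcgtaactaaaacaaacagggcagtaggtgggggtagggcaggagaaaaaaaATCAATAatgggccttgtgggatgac
Foxa2 site 5587 bp downstream of the start, chr2:148040262-148040461: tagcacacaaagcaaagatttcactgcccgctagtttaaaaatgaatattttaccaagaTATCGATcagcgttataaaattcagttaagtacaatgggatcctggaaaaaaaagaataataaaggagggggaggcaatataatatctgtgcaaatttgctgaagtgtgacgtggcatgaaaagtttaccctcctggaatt
Foxa2 site 21453 bp downstream of the start, chr2:148024396-148024595: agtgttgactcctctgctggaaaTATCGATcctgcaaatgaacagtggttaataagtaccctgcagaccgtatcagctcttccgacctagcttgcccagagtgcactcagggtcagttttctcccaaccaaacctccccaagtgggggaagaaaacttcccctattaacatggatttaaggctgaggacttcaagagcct

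The paralogs of *Foxa2* had fewer peaks. *Foxa1* (chromosome 12, 57540628 to 57546916, minus strand) had 2 NCoR peaks, both without partners and both in its intron, 2237 and 2754 bp downstream of the start. Its 1 SMRT peak had no partner either and lay 6635 bp downstream of the start, past the gene's end, and the nearest HDAC3 peak was 101567 bp from the start. A window with at least 2 NCoR peaks was found for 59.3% of protein-coding genes. *Foxa3* (chromosome 7, 19013284 to 19023538, minus strand) had 5 NCoR, 1 SMRT and 2 HDAC3 peaks. Its promoter had NCoR, 27 bp upstream of the start, with HDAC3 7 bp from the start, and its nearest SMRT peak was an intronic one 5492 bp away with no partner. A further NCoR peak with HDAC3 was found 12955 bp downstream, nearest to the start of *Irf2bp1*, an interferon regulatory factor 2 binding protein gene. The *Foxa3* window held 7 protein-coding genes, more than any of the other 8 windows, and 3 of its 5 NCoR peaks were nearest to *Irf2bp1*.

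*Cebpa* (chromosome 7, 35119293 to 35121928, plus strand) had the densest NCoR binding of the 9 genes. Its 16 NCoR peaks in a window of 102.6 kb made 15.6 per 100 kb, and 0.0228% of protein-coding genes had as high a density or higher. The window also held 6 SMRT and 6 HDAC3 peaks. Of the 16 NCoR peaks, 9 stood alone, 5 were shared, 1 had HDAC3 and 1 had SMRT. The promoter peak, 111 bp upstream of the start, was one of those alone, and the nearest SMRT and HDAC3 peaks were 11434 and 15512 bp from a start of the gene. Shared sites lay 28578 bp upstream, in an exon of the non-coding gene *Gm35611*, and 15551, 24748, 30916 and 48882 bp downstream in intergenic sequence. The first 4 were nearest to *Cebpa*, and the last was nearest to *Slc7a10*, an amino acid transporter gene, 18200 bp away. The 3 shared sites at 15551, 24748 and 30916 bp each held a FOX match, and so did 2 NCoR peaks without partners, 2643 bp upstream and 8761 bp downstream. The 3 sites are printed, the first as the shared site nearest to the start and the others as chosen after their values were seen. The match lay 5 bases past the centre in the first, 39 before it in the next and 2 before it in the last.
Cebpa site 15551 bp downstream of the start, chr7:35134755-35134954: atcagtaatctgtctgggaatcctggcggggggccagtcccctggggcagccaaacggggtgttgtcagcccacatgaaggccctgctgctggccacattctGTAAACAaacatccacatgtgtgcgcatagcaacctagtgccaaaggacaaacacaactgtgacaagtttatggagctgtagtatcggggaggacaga
Cebpa site 24748 bp downstream of the start, chr7:35143952-35144151: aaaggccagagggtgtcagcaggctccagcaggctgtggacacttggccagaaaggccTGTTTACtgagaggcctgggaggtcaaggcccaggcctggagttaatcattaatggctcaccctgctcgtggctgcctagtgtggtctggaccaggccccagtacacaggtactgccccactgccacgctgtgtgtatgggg
Cebpa site 30916 bp downstream of the start, chr7:35150120-35150319: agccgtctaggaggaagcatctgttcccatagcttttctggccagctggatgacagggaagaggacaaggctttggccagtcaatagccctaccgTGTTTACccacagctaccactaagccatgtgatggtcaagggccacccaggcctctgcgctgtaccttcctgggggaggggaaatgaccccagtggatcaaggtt

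*Cebpb* (chromosome 2, 167688915 to 167690418, plus strand) matched *Cebpa* in shared sites with fewer NCoR peaks. It had 10 NCoR, 6 SMRT and 7 HDAC3 peaks, the highest HDAC3 count of the 9 genes. Of its NCoR peaks, 5 were shared, 2 had HDAC3 and 3 stood alone. The shared site nearest to the start was centred 1075 bp upstream, just outside the promoter as defined here, with SMRT 1060 bp and HDAC3 1079 bp from the start. Another lay 33798 bp upstream, in an intron of *Gm20431*, and 3 lay 25604, 30809 and 33872 bp downstream in an intron of the non-coding gene *A530013C23Rik*. The site at 30809 bp held a FOX match, and the other 4 held none of the 7 motifs searched. In all, 7 of the 10 NCoR peaks were nearest to *Cebpb* itself, 2 to *Gm20431* and 1 to *Tmem189*. A SMRT peak with no partner was found 29164 bp upstream.

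*Prox1* (chromosome 1, 190118035 to 190170714, minus strand) had no NCoR peak near any of its 3 starts. The nearest was 10383 bp upstream and had no partner, and the nearest SMRT and HDAC3 peaks were 31190 and 31172 bp from a start. The window held 9 NCoR, 3 SMRT and 5 HDAC3 peaks, and every SMRT peak belonged to a shared site. Of these, 2 were upstream, at 31225 and 34025 bp, in an intron of the antisense gene *Prox1os*, and 1 was in an intron of *Prox1*, 38331 bp downstream of a start. Of the other NCoR peaks, 4 stood alone and 2 had HDAC3. All 9 were nearest to *Prox1*, the only protein-coding gene in the window. The intronic shared site was the only one of the 23 with both a FOX and an HNF6 match, and it is printed for that reason, chosen after its values were seen. The matches lay 83 and 63 bases before the centre.
Prox1 site 38331 bp downstream of the start, chr1:190130969-190131168: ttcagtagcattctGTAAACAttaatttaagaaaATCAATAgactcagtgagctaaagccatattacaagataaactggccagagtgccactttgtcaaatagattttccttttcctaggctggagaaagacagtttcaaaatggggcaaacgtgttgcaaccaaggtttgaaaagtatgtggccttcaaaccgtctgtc

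The ONECUT genes had their shared sites away from the start. *Onecut1* (chromosome 9, 74861921 to 74891781, plus strand) had 11 NCoR, 3 SMRT and 6 HDAC3 peaks. Its promoter peak, 158 bp upstream of the start, was NCoR alone, and a shared site stood 4898 bp into the gene. That site was 335 bp from a second start that the comprehensive annotation gives. The remaining 9 NCoR peaks all lay downstream of the gene, from 35041 to 77323 bp past the start, and included 4 with HDAC3 and 1 shared site at 49438 bp. Of these 9, 6 were nearest to *Fam214a*, the next protein-coding gene downstream. *Onecut2* (chromosome 18, 64340020 to 64400987, plus strand) had 9 NCoR, 5 SMRT and 4 HDAC3 peaks, all nearest to its own start. Its shared sites were at 14063 bp upstream and at 4269 and 10695 bp inside the gene, and the peaks nearest to the start were those of the site at 4269 bp. It was the only one of the 9 genes with 2 NCoR peaks that had SMRT but no HDAC3, both intronic, at 9240 and 16909 bp.

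Across the 9 windows, the partners of NCoR were close to those of all NCoR peaks. Shared sites made up 28.0% (23 of 82, 95% interval 18.7 to 39.1) against 24.9% of all NCoR peaks. NCoR with HDAC3 made up 19.5% (16 of 82) against 14.8%, and NCoR with SMRT 6.10% (5 of 82) against 4.16%. NCoR alone made up 46.3% (38 of 82, 35.3 to 57.7) against 56.1%. Each of the 4 shares over all NCoR peaks lay inside the interval of the windows. Every HDAC3 peak had NCoR within 200 bp, 39 of 39, and so did 28 of 31 SMRT peaks. Most peaks of the whole lists had NCoR too. Of all HDAC3 peaks, 60.4% had NCoR and SMRT and 36.0% had NCoR only. Of all SMRT peaks, 81.9% had NCoR and HDAC3 and 13.8% had NCoR only. The 3 SMRT peaks with no partner were at *Foxa1*, *Foxa3* and *Cebpb*, and made 9.68% (2.04 to 25.8) of SMRT peaks in the windows against 3.35% of all SMRT peaks. No window held HDAC3, alone or with SMRT, in the absence of NCoR, and such peaks made up only 2.95% and 0.588% of all HDAC3 peaks. By window, shared sites ranged from 0 of 2 NCoR peaks at *Foxa1*, 0 of 5 at *Foxa3* and 1 of 14 at *Hnf4a* to 5 of 10 at *Cebpb* and 4 of 6 at *Foxa2*, as the plot of NCoR peaks by partner shows. These counts are small, and differences between windows were not tested. The centres of partner peaks lay near each other, with medians of 42 bp between NCoR and SMRT (n = 28) and 30 bp between NCoR and HDAC3 (n = 39), where all NCoR peaks had medians of 24 and 23 bp.

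**Figure D2:**
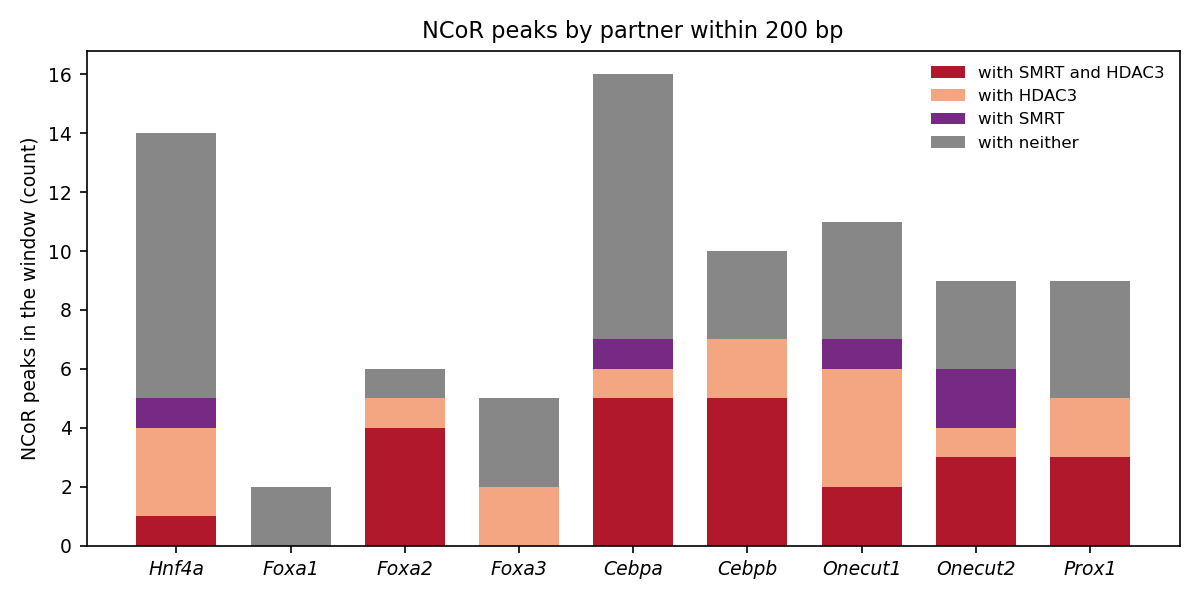
Number of NCoR peaks in each gene's window (bar height), coloured by which partners had a peak centre within 200 bp. *Hnf4a* and *Cebpa* have 9 NCoR peaks with neither partner each, while 4 of the 6 at *Foxa2* have both.

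Promoters held about the share of these sites that they held of all NCoR peaks. Of the 82 NCoR peaks, 9 lay at a promoter of any annotated gene, 11.0% (5.14 to 19.8) against 12.8% of all NCoR peaks. Of the 9 genes, 5 (*Hnf4a*, *Foxa2*, *Foxa3*, *Cebpa* and *Onecut1*) had an NCoR peak at a promoter of their own, against 16.9% of protein-coding genes. Only *Foxa2* had a shared site there, against 2.34%. Of the 23 shared sites, 14 were intronic, 7 were intergenic, 1 was in a non-coding exon and 1 was at a promoter. The last made 4.35% (0.110 to 21.9), against 8.19% of all shared sites. Among the 9 promoter peaks it was 1 of 9 (11.1%), against 15.9% of all promoter NCoR peaks. With respect to the lineage factor gene of the window, 7 shared sites were upstream, 5 within the gene and 11 downstream.

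The peaks formed runs. Another NCoR peak lay within 10 kb of 79 of the 82 (96.3%, 89.7 to 99.2), against 62.1% of all NCoR peaks, and the median gap to the next NCoR peak was 3.07 kb against 6.55 kb. The GC content of the 200 bases around the centre was also higher, with a median of 52.5% against 48%. The median distance to a protein-coding start was 11.8 kb against 18.2 kb. The windows hold only peaks in or within 50 kb of a protein-coding gene, so the way they were drawn limits this distance. The part of GC content and of distance to starts in the clustering was not tested.

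The nearest protein-coding start was that of the lineage factor itself for 57 of the 82 NCoR peaks, 69.5% (58.4 to 79.2). The rest were nearest to a neighbour, in most cases *Fam214a* beside *Onecut1*, *Ttpal* and *Fitm2* beside *Hnf4a*, *Irf2bp1* beside *Foxa3*, and *Cebpg* and *Slc7a10* beside *Cebpa*. When the starts of every annotated gene were used, the share fell to 36.6%, because antisense and other non-coding genes such as *Hnf4aos*, *Gm45091* and *Gm28172* start inside the windows. Counted without a window, 101 NCoR peaks of the genome had one of these 9 genes as the nearest protein-coding gene, and 44 of them lay outside the windows. *Foxa2* led with 22, of which 16 lay outside its window and as far as 323 kb away, and *Onecut1* followed with 18, of which 13 lay outside. The stretch over which a gene's start was the nearest protein-coding one ranged from 10.2 kb for *Foxa3* to 516 kb for *Foxa2*, with 421 kb for *Onecut1*. *Prox1*, with 495 kb, had 11 NCoR peaks by this count, of which 2 lay outside its window. By this assignment *Foxa2* had 9 shared sites and *Onecut1* had 8, and 7 of the 9 genes had at least 1, against 20.9% of protein-coding genes. *Foxa1* gained 1 shared site in this way, while *Hnf4a* lost its only one to *Ttpal* and *Foxa3* again had none.

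**Figure D3:**
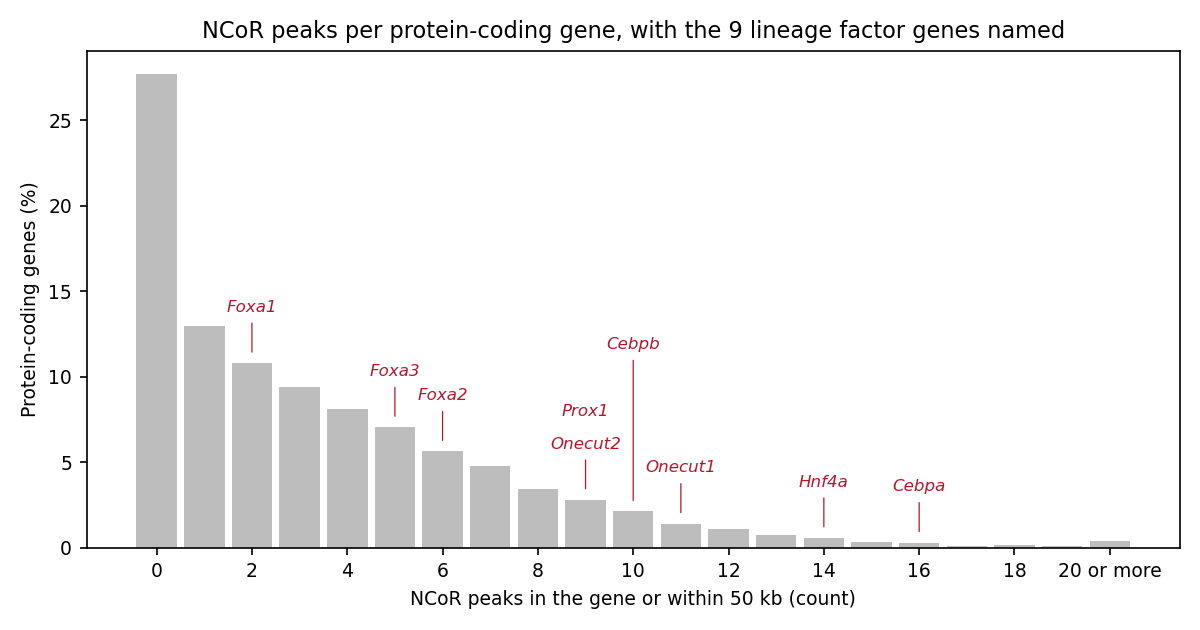
Share of protein-coding genes (bars, in %) with each number of NCoR peaks in the gene or within 50 kb, with the 9 lineage factor genes named at their own counts. All 9 are at 2 or more, the median of all genes, and *Cebpa* is the highest with 16.

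Motifs of the lineage factors themselves were searched for in the 200 bases around each NCoR centre, on both strands. The consensus letters were CAAAGTCCA for HNF4, TGTTTAC for FOX, TTGCGCAA, TTGTGCAA, TTATGCAA and TTACGCAA for C/EBP, and TATCGAT and TATTGAT for HNF6, and BCL6/STAT (TTCCNNGAA), ETS (CCGGAAGT) and DR1 were added. The HNF4 letters and DR1 can overlap. At least 1 of the 4 lineage motifs was found in 21 of 82 NCoR peaks, 25.6% (16.6 to 36.4) against 20.7% of all NCoR peaks. In windows of the same size 2 kb to either side the share was 4.27%, against 6.70% around all NCoR peaks. At shared sites the share was 52.2% (12 of 23, 30.6 to 73.2) against 27.6% of all shared sites, and at NCoR alone it was 15.8% (6 of 38) against 17.2%. Both FOX and HNF6 followed this pattern. FOX letters were in 7 of 23 shared sites, 30.4% (13.2 to 52.9) against 9.93% of all shared sites. They were in 7.89% of NCoR peaks alone, against 6.69% of all NCoR peaks alone. HNF6 letters were in 6 of 23, 26.1% (10.2 to 48.4) against 9.98%, and in 5.26% of NCoR peaks alone, against 5.41%. Over all NCoR peaks, too, both motifs were more frequent at shared sites than at NCoR alone. These counts are small, 6 of the 12 shared sites with a lineage motif being those printed for *Cebpa* and *Foxa2*. The matches in the 12 sites lay from 2 to 83 bases off centre, so a narrower search would miss the farther ones.

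The other motifs were rare. C/EBP letters were in 2 of 82 NCoR peaks, both with HDAC3 in the *Hnf4a* window, and in none of the 23 shared sites (upper bound 14.8%) against 7.80% of all shared sites. HNF4 letters were in 1, at *Prox1*, and DR1 in 3, of which 2 were at *Foxa2* and 1 at *Prox1*. The DR1 share was 3.66% (0.761 to 10.3) against 1.55% of all NCoR peaks. BCL6/STAT letters were in 3 peaks, 1 each at *Cebpa*, *Cebpb* and *Prox1*, or 3.66% (0.761 to 10.3) against 4.15% of all NCoR peaks. In the windows 2 kb away the share was 4.88%, against 3.12% around all NCoR peaks. No ETS letters were found (upper bound 4.40%), against 0.754% of all NCoR peaks. The letters of a gene's own family were counted too. No FOX match was found in the 13 NCoR peaks of the FOXA genes, against 11 in the other 69, no C/EBP match in the 26 of *Cebpa* and *Cebpb*, against 2 in the other 56, and no HNF4 match in the 14 of *Hnf4a*, against 1 in the other 68. HNF6 matches were in 3 of the 20 peaks of the ONECUT genes, all at *Onecut2*, against 6 in the other 62. With 7.74% of all NCoR peaks holding FOX, 6.88% HNF6, 5.51% C/EBP and 2.10% HNF4 letters, these counts are too small to show a difference. A match describes the letters only, and its absence says nothing of a factor's binding.

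**Figure D4:**
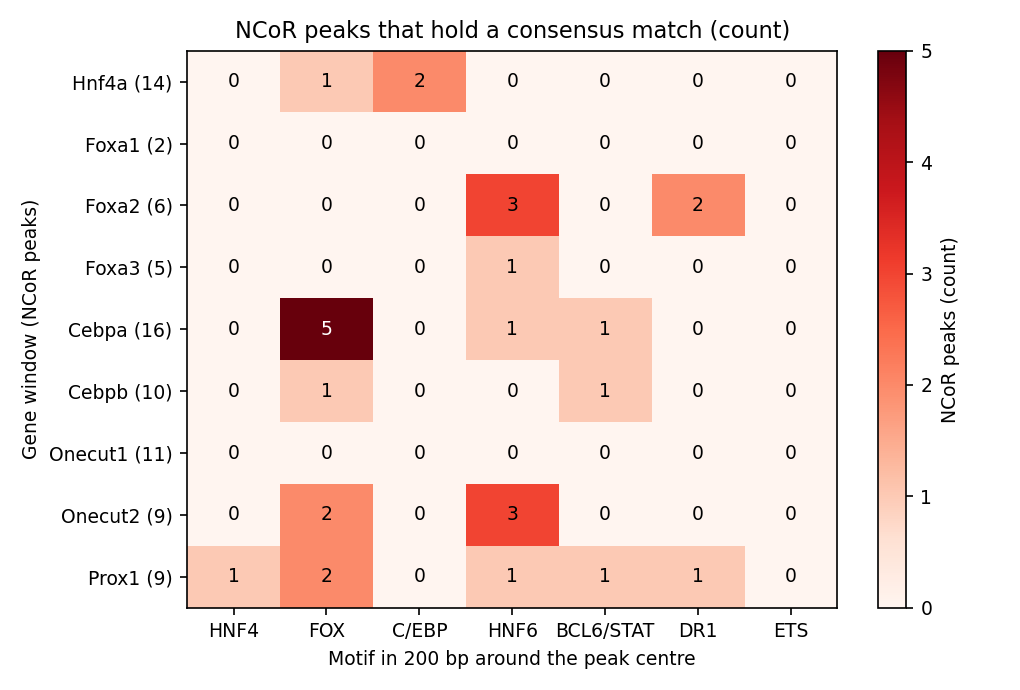
Number of NCoR peaks that held a match to each motif (columns) in each gene's window (rows, with the number of NCoR peaks in parentheses), shown as a number and as a shade. The highest cell is FOX at *Cebpa* with 5, and the rows of *Foxa1* and *Onecut1* are 0 throughout.

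To place these genes beside others of their kind, 25 other transcription factors and regulators of liver and 25 factors of other lineages were counted the same way. At least 1 shared site within 50 kb was found at 21 of the 25 liver genes and at 6 of the 25 genes of other lineages, where the 9 had 7 and all protein-coding genes 39.2%. With windows of 100 kb the count for genes of other lineages was 13 of 25, close to the 52.9% of all protein-coding genes. NCoR was found at 24 and 16 of the 25, HDAC3 at 21 and 7, and SMRT at 21 and 7. The median number of shared sites was 3 at the 9 genes, 2 at the other liver genes and 0 at those of other lineages. The lists were chosen with earlier results of these data known, and differences between them were not tested. Among the liver genes *Ppara*, the receptor of the fasting response, had most with 9, then *Nfia*, a nuclear factor I gene, with 8, then *Gata4* and *Nr1i3* (the nuclear receptor CAR) with 5 each. This order is of counts and takes no account of window length. Per 100 kb, *Ppara* had 5.36, *Nr1i3* 4.68, *Gata4* 2.89 and *Nfia*, with a window of 446 kb, 1.79. Among genes of other lineages *Olig2*, *Pdx1* and *Spi1* had most, with 2 each. No NCoR peak had the start of *Spi1* or of *Pdx1* as its nearest protein-coding start, so the sites of these windows were nearer to other genes. *Spi1* encodes a factor of myeloid cells, which whole liver also holds, but the cell type behind these sites was not tested. The 3 genes whose counts of SMRT, NCoR, HDAC3 and shared sites were closest to those of *Cebpa*, with a summed difference of 1 each, were *Dab1*, *Gucy2g* and *Mrtfb*, though these counts take no account of gene length. *Cebpg*, one of the 25 liver genes, lies beside *Cebpa*, and their windows overlap. Liver expression of the listed genes was not measured in these lists.

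**Figure D5:**
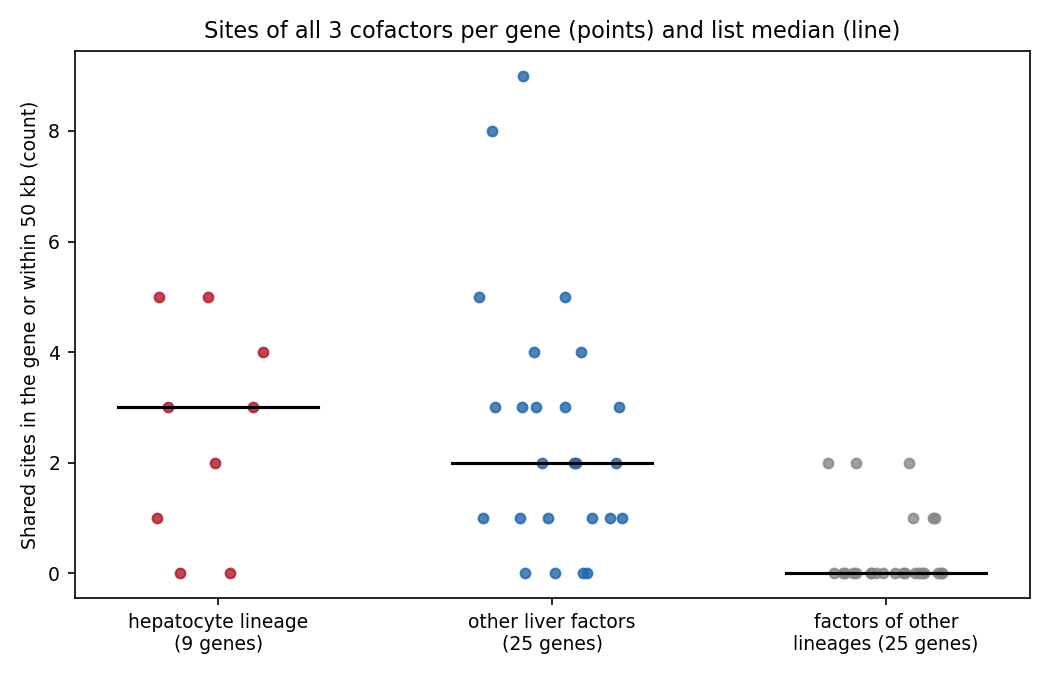
Number of shared sites in each gene or within 50 kb of it (points, spread sideways for view) for the 9 hepatocyte lineage factors, 25 other liver factors and 25 factors of other lineages, with the median of each list as a line. The medians are 3, 2 and 0, and no gene of other lineages has more than 2.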

How the data were processed

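The authors sequenced single-end ChIP-seq reads, aligned them to mm10 with Bowtie, and called peaks with HOMER on the pooled libraries of a cofactor against input, then filtered these with DESeq2 on the single libraries. The deposited lists hold a chromosome, start and end per peak and no other value, and all intervals of a list have 1 length (212 bp for SMRT, 228 bp for NCoR, 212 bp for HDAC3).

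Peak centres were placed against GENCODE vM21 (GRCm38) genes, and nearest starts were those of protein-coding transcripts in the basic annotation. All peaks lay inside the assembly's 21 chromosomes. Motifs were counted as exact letters in the RefSeq sequence of GRCm38. Intervals are from scipy 1.17.1 and cover counting error only. The functions for classes, nearest starts, promoters, motifs and counts were checked on made-up examples. Printed sequences were those of the shared site nearest to each start, where it held a lineage or BCL6/STAT match and overlapped no untranslated region. The others named as chosen later were added. The *Onecut2* site at 4269 bp, with an HNF6 match, met the first rule too but was not printed. The gene lists, windows and members were chosen with earlier results of these data known. Neighbouring genes were named where they took at least 3 peaks over all lists. *Tmem189*, which took 2, was named besides to complete the count at *Cebpb*. The 3 genes with most shared sites were named in each list, or 4 where the last place was tied. Alternatives were windows of 10 and 100 kb, partner distances of 100 and 400 bp, promoter widths of 500 and 5000 bp, motif windows of 100 bp, repeat-masked sequence and other sets of starts.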

Additional observations from a re-analysis of the deposited data

How the results depend on the processing

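The 11 results were recomputed 42 times, and 31 values differed from those above by less than their interval (or, for counts, by less than 1.5 times) while 11 moved further. With windows of 10 kb there were 13 SMRT, 43 NCoR and 16 HDAC3 peaks, 18.6% of the NCoR peaks were shared and 88.4% were nearest to the lineage factor, and a shared site was found at 0 of 25 genes of other lineages, 5 of the 9 lineage factor genes, 18 of 25 other liver genes and 20.7% of all protein-coding genes. With windows of 100 kb there were 129 NCoR peaks, and a shared site was found at 13 of the 25 genes of other lineages, close to the 52.9% of all protein-coding genes, at 8 of the 9 lineage factor genes and at 22 of the 25 other liver genes. With starts of every annotated gene, 36.6% of NCoR peaks were nearest to the lineage factor. With promoters of 5000 bp, 35.4% of NCoR peaks lay at one (36.2% of all NCoR peaks). With motif windows of 100 bp, 12.2% held a lineage motif, and no share at that width is given for all NCoR peaks or for shared sites. With partners within 100 bp, 23.2% of NCoR peaks were shared, below the 24.0% of all NCoR peaks, where the 200 bp distance had put the windows above. With the comprehensive annotation, tried after seeing the data, 63.4% were nearest to the lineage factor and 13.4% lay at promoters. No paired analysis was possible because the lists give 1 set of positions per cofactor and no value for any library. For the same reason no replicate was left out, and no stricter threshold was tried, since the lists hold no score. A shorter list may come from lower depth, a weaker antibody or fewer bound sites, and these cannot be told apart.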
